A study of Mus musculus with 10 samples.

Results

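The genes of sterol and fatty acid synthesis were followed through 10 RNA-seq libraries of cells that were sorted out of calvarial sutures, the seams of the skull roof, in mouse pups at postnatal day 7. The set holds 35 genes of the 25239 gene rows in the deposited count table: 18 enzymes of cholesterol synthesis, 6 regulators of the sterol-responsive transcription factors SREBP, and 11 enzymes of fatty acid synthesis, elongation and desaturation. The genes were chosen by their place in the pathway and with their differences between these same groups already known, so that the differences between the groups are given as a description and carry no test. All 35 had a row and passed the filter on low counts, and the lowest count of any of them in any library was 89, for Tm7sf2. The libraries fall into 2 groups of 5, numbered 1 to 5 in each: DDR2-plus, named for the collagen receptor kinase DDR2, and PSC, which the labels leave as an abbreviation. Both groups are labelled calvarial stem cells isolated by flow sorting, of the same age and of genotype WT, while the protocol names Ctsk-Cre mice (n = 5), in which Cre recombinase is driven by the gene of the protease cathepsin K. The labels tie no library to an animal, so that the spread between libraries may be in part technical. No treatment, batch or date is named, and the index numbers in the labels run through the PSC libraries and then the DDR2-plus libraries, so that an effect of library order and the group cannot be told apart.

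Cells make cholesterol from acetyl-CoA through HMG-CoA and mevalonate, the isoprenoid farnesyl pyrophosphate, squalene and lanosterol, and fatty acids from the same acetyl-CoA through malonyl-CoA. Both branches are transcribed under SREBP factors, which are held in the endoplasmic reticulum by SCAP and the INSIG proteins while sterols are plentiful and are carried to the Golgi and cut into active factors when sterols run low. SREBP-2, from Srebf2, acts mainly on the sterol branch and SREBP-1, from Srebf1, more on the fatty acid branch. In the skeleton, cholesterol is needed by growth plate chondrocytes, and it is attached to hedgehog ligands.

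Total counts lay between 43419129 and 62021992 per library. Levels are given as CPM, read counts relative to the library total, scaled by TMM factors, which correct for a few genes taking much of a library. The labels were compared with marker genes first. Ddr2 itself was at 112 ± 3.56 CPM across DDR2-plus against 152 ± 10.7 CPM across PSC, below every PSC library in each library labelled DDR2-plus, and Ctsk was at 107 ± 15.2 CPM across DDR2-plus against 294 ± 15 CPM across PSC (SD, n = 5 each). Sorting reads a surface protein, and mRNA is an indirect check of it. The summed CPM of 8 chondrocyte markers was 86969.7 to 120114 CPM in DDR2-plus and 12129.6 to 27118 CPM in PSC, that of 7 osteoblast markers 28980.5 to 51428 CPM in DDR2-plus and 157325 to 178914 CPM in PSC, and that of 5 tendon markers 130.0 to 245 CPM in DDR2-plus and 2471 to 3034 CPM in PSC. The groups therefore differ in the makeup of skeletal markers, and in bulk RNA more cells of a type and more RNA of a gene per cell cannot be told apart.

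Of the 35 genes, 26 were called higher in DDR2-plus at an edgeR adjusted p below 0.05 in the fit across all 15416 tested genes, 1 was called lower and 8 were not called. Over all tested genes, 20.1% were called higher and 19.0% lower. Since that contrast was in view when the genes were chosen, nothing is read from the gap. In 26 of the 35 every DDR2-plus library lay above every PSC library, which held for 15.6% of all tested genes, and in 0 every DDR2-plus library lay below, which held for 14.6% of all tested genes. The 26 that did not overlap were the same 26 that were called higher. The median log2 fold change, DDR2-plus over PSC, was 0.97 over the 35 and 0.038 over all tested genes. When library size alone is used for scaling, the median of all tested genes moves to 0.31, the calls move to 5421 higher and 1538 lower, against 3096 and 2926 with TMM, and differences near 0 can change sign under it.

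**Figure D1:**
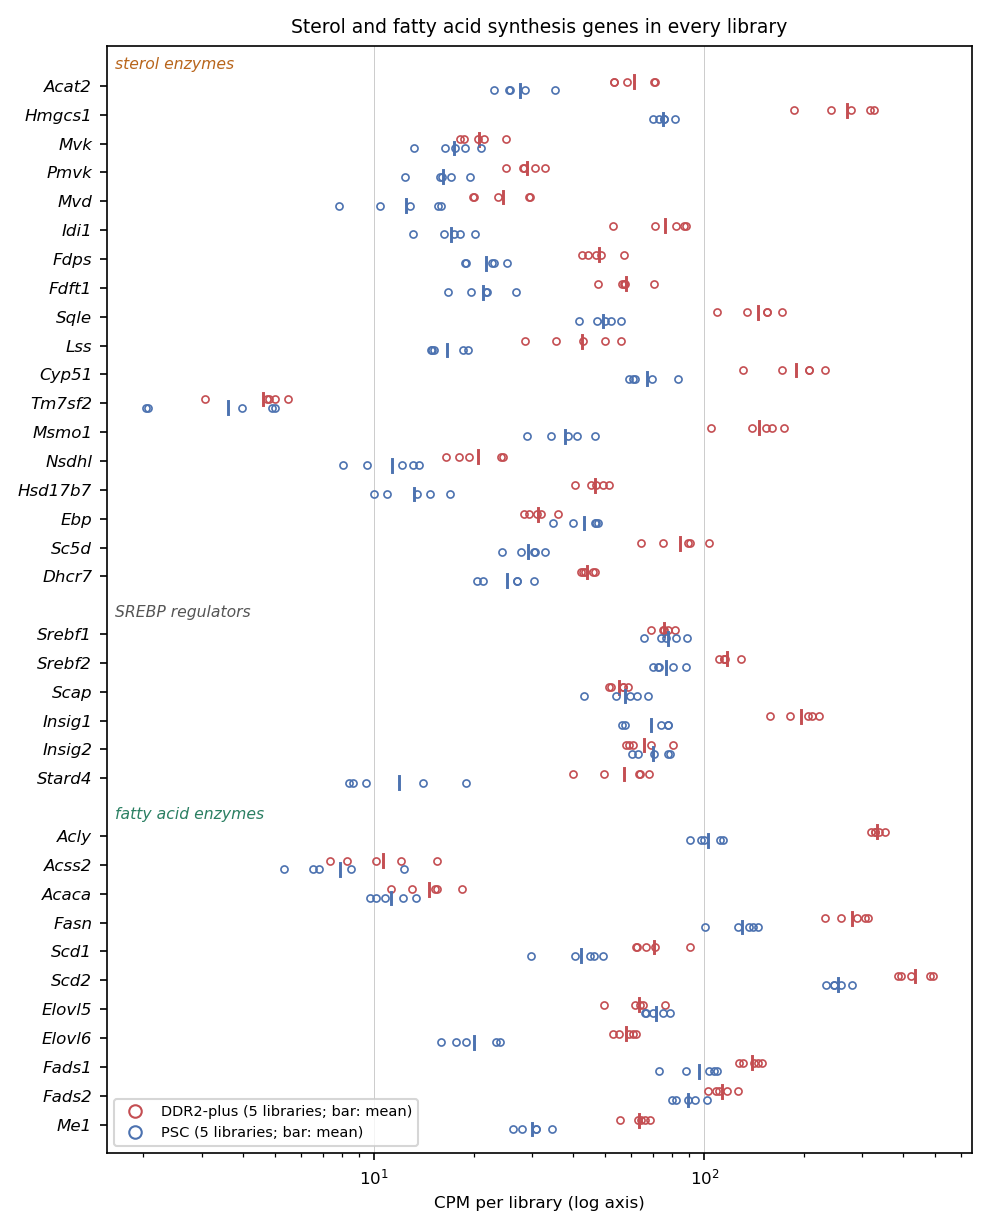
CPM of each of the 35 genes in every library on a log axis, with the 5 DDR2-plus libraries in red, the 5 PSC libraries in blue and a bar at each group mean. In 26 genes the red points lie apart from and above the blue, while Mvk, Tm7sf2, Ebp, Srebf1, Scap, Insig2, Acss2, Acaca and Elovl5 overlap.

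The promoters of the genes are shown first, because members of the pathway are known to share sites for SREBP and for its partner NF-Y, which binds the CCAAT box. RefSeq promoter windows (build GRCm38.p6, 250 bases before to 50 after each start) matched 28 of the 35 genes. Fdps, Fdft1, Sqle, Stard4, Scd1, Scd2 and Fads1 have no entry in the table used. Each motif was searched on both strands, and a gene with several windows counted if any of them held it. The CCAAT box, searched as CCAAT, was in 14 of 15 sterol enzyme promoters (93.3%), 4 of 5 regulator promoters and 5 of 8 fatty acid enzyme promoters (62.5%), against 42.7% of the 12054 tested genes with a window. The 5 without it were Acat2, Scap, Acaca, Elovl6 and Fads2. The GC box GGGCGG, a site of Sp1, was in 14 of 15, 5 of 5 and 4 of 8, against 66.5%. The E-box CACGTG was in 3 of 15 (Hsd17b7, Sc5d and Dhcr7), 2 of 5 (Scap and Insig1) and 1 of 8 (Elovl5), against 11.3%. The sterol regulatory element written as TCACNCCAC was found for Hmgcs1 alone of the 28, against 1.42% of tested genes. Its shorter form TCACNCCA, which the longer one contains, was found for Hmgcs1, Msmo1 and Srebf2, against 4.58%. The windows of the members had a median GC content of 61.9%, near the 60.7% of tested genes. No binding was measured in these libraries, and a match is only a run of letters.

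Upstream stretches of 7 members follow, each running from 10 bases outside the outermost match between 200 bases and 1 base before the start, 5′ to 3′ on the gene's strand, with CCAAT boxes (ATTGG on the other strand) and sterol elements in capitals. They are the members with 1 window, either a sterol element or at least 2 CCAAT boxes there, and no annotated exon in the stretch. The calls played no part in that choice. Of these members, Hmgcs1, Mvd, Srebf2 and Fasn were called higher in DDR2-plus, and Mvk, Ebp and Elovl5 were not.
Hmgcs1: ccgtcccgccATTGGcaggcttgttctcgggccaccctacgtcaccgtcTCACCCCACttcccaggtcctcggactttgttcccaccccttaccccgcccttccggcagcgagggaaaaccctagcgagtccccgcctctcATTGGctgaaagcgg
Mvk: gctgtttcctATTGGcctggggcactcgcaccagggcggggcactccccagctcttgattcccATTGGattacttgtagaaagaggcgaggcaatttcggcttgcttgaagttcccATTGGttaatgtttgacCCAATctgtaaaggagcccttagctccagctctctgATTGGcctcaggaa
Mvd: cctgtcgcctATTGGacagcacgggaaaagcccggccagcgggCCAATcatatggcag
Ebp: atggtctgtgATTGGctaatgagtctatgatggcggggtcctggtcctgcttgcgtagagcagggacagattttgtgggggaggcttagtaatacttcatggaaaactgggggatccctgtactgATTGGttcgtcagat
Srebf2: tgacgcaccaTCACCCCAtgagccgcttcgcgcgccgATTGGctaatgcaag
Fasn: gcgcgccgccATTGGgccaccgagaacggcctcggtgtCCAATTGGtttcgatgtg
Elovl5: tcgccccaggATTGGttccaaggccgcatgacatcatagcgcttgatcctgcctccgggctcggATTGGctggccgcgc
The stretches lie at Hmgcs1 chr13:119690165-119690320, plus strand, Mvk chr5:114444086-114444268, plus strand, Mvd chr8:122443435-122443492, minus strand, Ebp chrX:8193553-8193692, minus strand, Srebf2 chr15:82147097-82147148, plus strand, Fasn chr11:120824592-120824647, minus strand, Elovl5 chr9:77917284-77917362, plus strand. Hmgcs1 holds its sterol element between a pair of CCAAT boxes, with its first base 137 bases before the start. In Fasn, a forward and a reverse box overlap within the letters CCAATTGG. Mvk, not called between the groups, has 5 boxes, more than any other stretch shown, and Ebp, called lower, has 2, as has Mvd, which was higher. Any link between the boxes and the calls was not tested.

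Among the sterol enzymes, 15 of 18 were called higher in DDR2-plus, 1 lower and 2 not, beside 20.1% of all tested genes called higher and 19.0% lower. Their median log2 fold change was 1.25, with a range from -0.46 to 2.16, and 11 were at least 2-fold higher. The steps from acetyl-CoA to HMG-CoA were high in DDR2-plus. Acat2, the cytosolic thiolase that joins acetyl-CoA units (chromosome 17, 12942890 to 12960747, minus strand, build GRCm38 here and below), stood at 70.6, 70.8, 53.3, 58.3 and 53.1 CPM in DDR2-plus 1 to 5 and 35.3, 25.7, 28.6, 25.8 and 23.1 CPM in PSC 1 to 5. Every DDR2-plus library lay above every PSC library, with a log2 fold change of 1.14 (SE 0.13). Its neighbour Acat3 encodes a close copy, was at 16.3 ± 2.57 CPM across DDR2-plus against 6.81 ± 1.21 CPM across PSC, and could share reads with it. Hmgcs1, the HMG-CoA synthase (chromosome 13, 119690379 to 119708260, plus strand), stood at 327, 318, 187, 279 and 241 CPM in DDR2-plus 1 to 5 and 81.8, 75.4, 73.1, 69.9 and 75.3 CPM in PSC 1 to 5. The lowest DDR2-plus library, 3, was still above the highest PSC library, and the log2 fold change of 1.85 (SE 0.13) is 3.6-fold. Hmgcs1 shares 12.1% of its exonic bases with the gene model Gm48342.

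The kinases and decarboxylase that turn mevalonate into an isoprene unit differed less. Mvk, mevalonate kinase (chromosome 5, 114444269 to 114460591, plus strand), was at 20.8 ± 2.73 CPM across DDR2-plus against 17.4 ± 2.94 CPM across PSC, overlapped between the groups and was not called (log2 fold change 0.26, SE 0.14). Pmvk, phosphomevalonate kinase, stood at 30.6, 32.8, 25, 28.5 and 28.3 CPM in DDR2-plus 1 to 5 and 19.5, 17.1, 16, 15.8 and 12.4 CPM in PSC 1 to 5. Mvd, the decarboxylase, stood at 29.5, 29.6, 20.1, 23.7 and 19.99 CPM in DDR2-plus 1 to 5 and 7.8, 12.8, 15.6, 16 and 10.4 CPM in PSC 1 to 5. In both the groups were apart, with log2 fold changes of 0.85 (SE 0.13) and 0.97 (SE 0.20). Idi1, the isomerase that makes the reactive isoprene unit (chromosome 13, 8885501 to 8892451, plus strand), had the highest fold change of the 18 and stood at 82, 87, 53, 88 and 70.8 CPM in DDR2-plus 1 to 5 and 18.2, 17.4, 13.2, 20.2 and 16.3 CPM in PSC 1 to 5. The DDR2-plus libraries were on average 4.46-fold above PSC (log2 fold change 2.16, SE 0.15). Mvk, between Hmgcs1 and Idi1 in the pathway, is thus the one early enzyme of the 18 without a call, although it was called higher with library size alone (0.52).

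The isoprene units are joined to squalene by Fdps, the farnesyl pyrophosphate synthase, and Fdft1, the squalene synthase. Fdps stood at 48.5, 57.2, 42.7, 44.5 and 46.8 CPM in DDR2-plus 1 to 5 and 25.2, 22.8, 23.1, 18.9 and 18.8 CPM in PSC 1 to 5. Fdft1 stood at 70.3, 57.1, 47.6, 57.7 and 56.5 CPM in DDR2-plus 1 to 5 and 26.9, 22, 19.6, 16.7 and 21.8 CPM in PSC 1 to 5. Both were higher in every DDR2-plus library, with log2 fold changes of 1.14 (SE 0.11) and 1.43 (SE 0.13). Both share exonic bases with another gene, Fdps 26.7% with Gm43738 and Fdft1 18.3% with Ctsb on the other strand, and the kit does not mark strand. Ctsb averaged 618 ± 14.4 CPM across DDR2-plus against 726 ± 18 CPM across PSC. Sqle, the squalene epoxidase and a rate-limiting oxygen-using step (chromosome 15, 59315077 to 59331192, plus strand), stood at 172, 155, 109, 154 and 135 CPM in DDR2-plus 1 to 5 and 56, 52.2, 49.9, 41.7 and 47.3 CPM in PSC 1 to 5. Lss, which closes the ring to lanosterol, stood at 49.9, 55.9, 28.7, 42.9 and 35.6 CPM in DDR2-plus 1 to 5 and 14.8, 19.2, 18.5, 15 and 15.2 CPM in PSC 1 to 5. Neither overlapped between the groups (log2 fold changes 1.55 with SE 0.12 and 1.36 with SE 0.17).

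Lanosterol is then stripped of methyl groups on its way to cholesterol. Cyp51, the lanosterol demethylase (chromosome 5, 4081145 to 4104746, minus strand), stood at 233, 208, 131, 207 and 172 CPM in DDR2-plus 1 to 5 and 83.4, 69.7, 59, 61.6 and 60.8 CPM in PSC 1 to 5, with a log2 fold change of 1.51 (SE 0.15). Tm7sf2, a sterol reductase, was the scarcest of the 18, at 4.61 ± 0.909 CPM across DDR2-plus against 3.6 ± 1.46 CPM across PSC, and was not called (log2 fold change 0.36, SE 0.32). It shares 12.1% of its exonic bases with Vps51. Msmo1, the methylsterol oxidase (chromosome 8, 64718139 to 64733792, minus strand), stood at 159.8, 175, 105, 154 and 139.9 CPM in DDR2-plus 1 to 5 and 38.5, 46.7, 34.4, 41.1 and 29 CPM in PSC 1 to 5. Its lowest DDR2-plus value, in library 3, was above the highest PSC value, and the log2 fold change of 1.95 (SE 0.15) was second to that of Idi1 among the 18. Nsdhl, the decarboxylating dehydrogenase of the same complex, stood at 24.5, 19.4, 24.3, 18 and 16.5 CPM in DDR2-plus 1 to 5 and 13.7, 13.1, 9.52, 12.2 and 8.04 CPM in PSC 1 to 5. Hsd17b7, its ketoreductase, stood at 51.4, 49.3, 40.4, 47 and 45.4 CPM in DDR2-plus 1 to 5 and 16.9, 13.4, 10.9, 9.96 and 14.8 CPM in PSC 1 to 5. Within this one complex the log2 fold changes thus ranged from 0.86 (SE 0.18) for Nsdhl to 1.82 (SE 0.14) for Hsd17b7 and 1.95 for Msmo1.

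The last steps move and reduce double bonds. Ebp, the sterol isomerase (chromosome X, 8185329 to 8193512, minus strand), was the only one of the 35 called lower. It stood at 35.9, 29.4, 32, 28.3 and 31.1 CPM in DDR2-plus 1 to 5 and 47, 46.8, 47.5, 39.9 and 34.8 CPM in PSC 1 to 5. The groups met at the edge, DDR2-plus 1 lying above PSC 5, and the log2 fold change of -0.46 (SE 0.11) was called in 17 of 18 alternative settings, the exception being library size alone (-0.19). Sc5d, the desaturase after it (chromosome 9, 42251595 to 42264256, minus strand), stood at 89.1, 103, 64.5, 90.4 and 74.9 CPM in DDR2-plus 1 to 5 and 27.8, 30.5, 30.8, 32.8 and 24.4 CPM in PSC 1 to 5, with a log2 fold change of 1.53 (SE 0.13). Dhcr7, the reductase whose loss causes Smith-Lemli-Opitz syndrome (chromosome 7, 143823145 to 143848410, plus strand), stood at 46.5, 42.8, 42.4, 45.9 and 43.6 CPM in DDR2-plus 1 to 5 and 30.4, 27.1, 21.4, 20.4 and 27 CPM in PSC 1 to 5, with a log2 fold change of 0.81 (SE 0.11). Neighbouring steps thus differed in direction, with Ebp lower and the genes on either side of it, Hsd17b7 and Sc5d, higher in DDR2-plus.

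**Figure D2:**
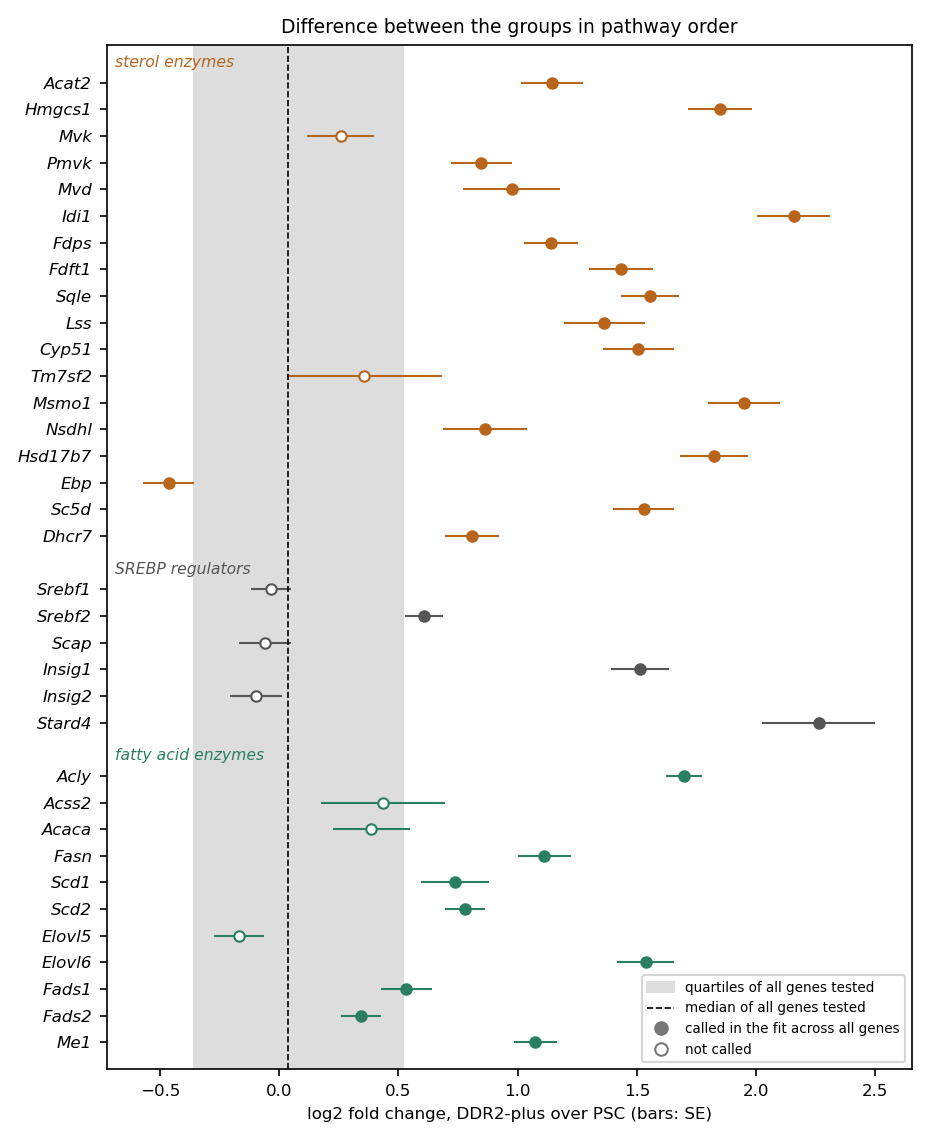
Log2 fold change of each gene, DDR2-plus over PSC, in pathway order with bars of 1 SE, filled where called in the fit across all genes, and a grey band for the quartiles of all tested genes (-0.36 to 0.52). Ebp is the filled point below 0, and Srebf1, Scap, Insig2 and Elovl5 lie below 0 here and above 0 when library size alone is used.

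The 6 regulators split evenly, with 3 called higher and 3 not, beside 20.1% of all tested genes called higher. Srebf2, which encodes SREBP-2 (chromosome 15, 82147181 to 82205379, plus strand), stood at 116, 129, 114, 114 and 111 CPM in DDR2-plus 1 to 5 and 69.8, 80.3, 88.3, 72.5 and 72.8 CPM in PSC 1 to 5. Every DDR2-plus library lay above every PSC library (log2 fold change 0.61, SE 0.078). Srebf1, which encodes SREBP-1 (chromosome 11, 60199089 to 60222581, minus strand), stood at 81.2, 68.8, 77.5, 75.4 and 74.8 CPM in DDR2-plus 1 to 5 and 74.1, 76.5, 88.6, 82.1 and 65.6 CPM in PSC 1 to 5. The groups overlapped through most of their range, with no call and a log2 fold change of -0.035 (SE 0.085). Scap, the sterol sensor that escorts SREBP, was at 55.1 ± 3.18 CPM across DDR2-plus against 57.4 ± 9.35 CPM across PSC and overlapped too (-0.058, SE 0.11). It shares 13.2% of its exonic bases with 5830462I19Rik. With library size alone, the log2 fold changes of Srebf1, Scap and Insig2 turned positive, to 0.24, 0.21 and 0.17, and Srebf1 was then called higher. Srebf1 was also just above 0 without PSC 3 (0.016) and Scap without PSC 4 (0.0072), uncalled in both.

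The pair of INSIG genes, whose proteins hold SCAP in the endoplasmic reticulum, differed from each other. Insig1, itself a target of SREBP (chromosome 5, 28071363 to 28078662, plus strand), stood at 206, 223, 158, 212 and 182 CPM in DDR2-plus 1 to 5 and 74, 77.9, 57.7, 77.9 and 56.3 CPM in PSC 1 to 5. Insig2, which is regulated otherwise (chromosome 1, 121304353 to 121332589, minus strand), stood at 59.2, 80.4, 68.7, 61 and 58.1 CPM in DDR2-plus 1 to 5 and 78.4, 77.8, 63, 70.5 and 60.2 CPM in PSC 1 to 5. Insig1 was 2.85-fold higher in DDR2-plus without overlap (log2 fold change 1.51, SE 0.12), while Insig2 overlapped and was not called (-0.097, SE 0.11). Per kilobase of transcript, the ratio of Insig1 to Insig2 was 3.49, 2.77, 2.3, 3.48 and 3.13 in DDR2-plus 1 to 5 and 0.943, 1.0003, 0.916, 1.1 and 0.935 in PSC 1 to 5. The same ratio of Srebf2 to Srebf1 was 1.32 ± 0.152 in DDR2-plus and 0.843 ± 0.0752 in PSC (SD, n = 5 each). Neither ratio overlapped between the groups, and a ratio within a library does not depend on how libraries are scaled. Stard4, a cytosolic sterol carrier and a target of SREBP, had the highest fold change of the 35. It stood at 68.1, 63.3, 40.01, 63.7 and 49.6 CPM in DDR2-plus 1 to 5 and 8.37, 18.9, 8.61, 14.1 and 9.41 CPM in PSC 1 to 5, with a log2 fold change of 2.26 (SE 0.24).

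Among the fatty acid enzymes, 8 of 11 were called higher, none lower and 3 not, beside 20.1% of all tested genes called higher and 19.0% lower. Their median log2 fold change was 0.74, with a range from -0.17 to 1.7, and 4 were at least 2-fold higher. Acly, the lyase that makes cytosolic acetyl-CoA from citrate and so feeds both branches (chromosome 11, 100476353 to 100528000, minus strand), stood at 328, 338, 352, 328 and 319 CPM in DDR2-plus 1 to 5 and 99.8, 111, 114, 97.6 and 90.3 CPM in PSC 1 to 5. The values were tight within each group and 3.25-fold apart (log2 fold change 1.7, SE 0.075). Acss2, which makes acetyl-CoA from acetate instead, was at 10.7 ± 3.23 CPM across DDR2-plus against 7.89 ± 2.7 CPM across PSC, overlapped and was not called (log2 fold change 0.44, SE 0.26), though it was called higher with library size alone (0.71). Me1, the malic enzyme that supplies NADPH (chromosome 9, 86581371 to 86695953, minus strand), stood at 63.1, 68.2, 55.6, 64.5 and 66.2 CPM in DDR2-plus 1 to 5 and 31, 26.3, 34.5, 31 and 28.1 CPM in PSC 1 to 5. It did not overlap between the groups (log2 fold change 1.07, SE 0.092). Acaca, the acetyl-CoA carboxylase that commits carbon to fatty acids (chromosome 11, 84129672 to 84401651, plus strand), stood between 11.2 and 18.4 CPM in DDR2-plus and between 9.68 and 13.4 CPM in PSC. It was not called (log2 fold change 0.39, SE 0.16), but was called higher without DDR2-plus 3 (log2 fold change 0.46), without PSC 5 (0.46) and with library size alone (0.65). Fasn, the synthase that builds palmitate (chromosome 11, 120805846 to 120824547, minus strand), stood at 290.3, 314, 232, 306 and 260.2 CPM in DDR2-plus 1 to 5 and 146, 137, 140.1, 126 and 101 CPM in PSC 1 to 5. All DDR2-plus libraries were higher, 2.16-fold on average (log2 fold change 1.11, SE 0.11).

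Palmitate is elongated and desaturated by the remaining genes. Elovl6, the elongase of saturated chains (chromosome 3, 129532355 to 129638495, plus strand), stood at 60.9, 58.9, 52.7, 62.2 and 55.2 CPM in DDR2-plus 1 to 5 and 23.4, 17.7, 15.9, 19 and 24 CPM in PSC 1 to 5, with a log2 fold change of 1.54 (SE 0.12). Elovl5, the elongase of polyunsaturated chains (chromosome 9, 77917364 to 77984519, plus strand), was at 63.4 ± 9.45 CPM across DDR2-plus against 71.2 ± 5.41 CPM across PSC, overlapped, and was not called (-0.17, SE 0.10, and 0.098 with library size alone). Per kilobase, the ratio of Elovl6 to Elovl5 was 0.434 ± 0.0541 in DDR2-plus and 0.133 ± 0.0307 in PSC without overlap (SD, n = 5 each). The stearoyl-CoA desaturases Scd1 and Scd2, neighbours on chromosome 19, put the first double bond into saturated chains. Scd1 stood at 66.6, 90.4, 62.4, 61.9 and 70.7 CPM in DDR2-plus 1 to 5 and 46.3, 49.2, 45.2, 40.5 and 29.8 CPM in PSC 1 to 5. Scd2 stood at 492, 482, 387, 423 and 394 CPM in DDR2-plus 1 to 5 and 247, 281, 248, 234 and 259 CPM in PSC 1 to 5. Their log2 fold changes were 0.74 (SE 0.14) and 0.78 (SE 0.084), and their ratio per kilobase, Scd2 over Scd1, was 5.55 ± 0.76 in DDR2-plus and 5.49 ± 1.25 in PSC, overlapping. PSC 5, at 7.71, stood apart from the other PSC libraries in that ratio. Fads1 and Fads2, the neighbouring desaturases of polyunsaturated chains, were both called higher in DDR2-plus without overlap. Their log2 fold changes, 0.53 (SE 0.11) and 0.34 (SE 0.084), were smaller than those of Scd1 and Scd2. Fads1 ran from 127 to 149.8 CPM in DDR2-plus and from 72.8 to 109 CPM in PSC, and Fads2 from 103 to 127 CPM and from 80.1 to 102 CPM, so that the closest Fads2 libraries nearly met.

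The sterol arm and the fatty acid arm were set side by side in each library. The mean log2 CPM over the 18 sterol enzymes was 5.81, 5.81, 5.41, 5.68 and 5.51 in DDR2-plus 1 to 5 and 4.64, 4.52, 4.47, 4.36 and 4.36 in PSC 1 to 5. The groups were 1.18 apart on this scale, at 5.64 ± 0.18 and 4.47 ± 0.12 (SD, n = 5 each). Over the 11 fatty acid enzymes it was 6.41, 6.47, 6.31, 6.42 and 6.38 in DDR2-plus and 5.65, 5.66, 5.69, 5.53 and 5.6 in PSC, 0.77 apart. The sterol arm therefore differed more between the groups than the fatty acid arm in log2 units, and it also varied more between the libraries of 1 group. Within each library, the sterol mean minus the fatty acid mean, which scaling does not touch, was -0.59, -0.65, -0.90, -0.74 and -0.87 in DDR2-plus 1 to 5. In PSC 1 to 5 it was -1.004, -1.14, -1.22, -1.17 and -1.24. The groups did not overlap, the nearest libraries being DDR2-plus 3 and PSC 1. As sums, the 18 sterol enzymes came to 1344 ± 215 and 506 ± 44.2 CPM, 2.66-fold apart, and the 11 fatty acid enzymes to 1582 ± 96.2 and 854 ± 56.1 CPM, 1.85-fold apart. The sterol enzymes took 0.147% of all counts in DDR2-plus and 0.046% in PSC, and the fatty acid enzymes 0.174% and 0.0778%. The genes of both arms were chosen with these groups compared, so that the gap between the arms is a description.

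**Figure D3:**
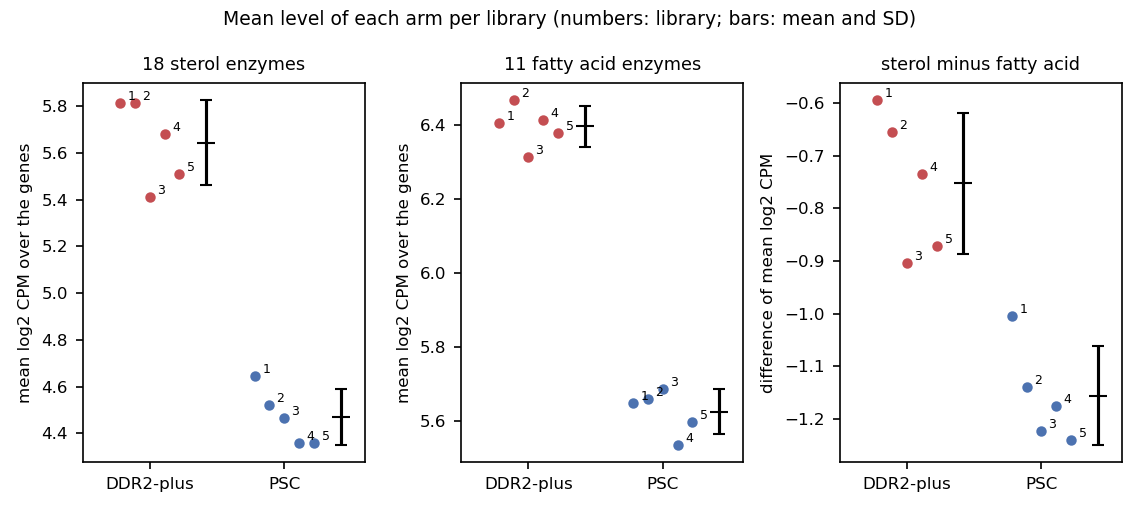
Mean log2 CPM of the sterol enzymes (left), of the fatty acid enzymes (middle) and their difference (right) per library, each point marked by its library number, with the mean and SD of each group beside it. DDR2-plus 3 is the lowest of its group in all 3 panels, and in each panel the groups are apart.

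Levels were compared between genes per kilobase of the principal transcript. In CPM per kilobase, Scd2 was the highest of the 35 in both groups, at 79.9 ± 8.92 in DDR2-plus and 46.5 ± 3.26 in PSC (SD, n = 5 each). In DDR2-plus it was followed by Hmgcs1 at 78.1 ± 16.7, Acly at 75.8 ± 2.84, Insig1 at 72.8 ± 9.7 and Msmo1 at 71.7 ± 13 CPM per kilobase. From Scd2 to Msmo1, neighbours in that order differed by less than the larger of their SDs. In PSC the next were Fads2 at 28.3 ± 2.81, Fads1 at 27.8 ± 4.47, Insig2 at 25.9 ± 3.09 and Elovl5 at 25.6 ± 1.95 CPM per kilobase. Those 4 differed from their neighbours by less than the larger SD, while Scd2 stood apart. By this measure Hmgcs1 ranked 2 in DDR2-plus and 9 in PSC, and Idi1 13 and 27, while Ebp ranked 19 and 7. Acaca was the lowest of the 35 in both groups, at 1.54 ± 0.286 and 1.18 ± 0.164 CPM per kilobase, so that the carboxylase stood far below Fasn, the synthase it feeds, at 27.9 ± 3.39 and 12.9 ± 1.77. Per kilobase, the ratio of Hmgcs1, at the head of the sterol branch, to Fasn was 2.77 ± 0.351 in DDR2-plus and 1.7 ± 0.264 in PSC. That of Acly to Acss2, the routes from citrate and from acetate, was 22.3 ± 6.2 and 9.45 ± 2.85. Neither overlapped between the groups. The ratio of the successive sterol steps Sqle and Lss was 5.89 ± 0.711 and 5.1 ± 0.77, with overlap.

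DDR2-plus 3 was the lowest of its group for 12 of 18 sterol enzymes (66.7%) and 6 of 11 fatty acid enzymes, against 23.8% of all tested genes. The highest value was in DDR2-plus 1 for 8 of 18 sterol enzymes and in DDR2-plus 2 for 8, against 22.8% and 18.8% of all tested genes. The median departure of the sterol enzymes from their group mean was -0.24 in DDR2-plus 3 and 0.20 in DDR2-plus 2 on the log2 scale. Mvk, Nsdhl and Ebp did not follow, with DDR2-plus 3 at 21.5, 24.3 and 32 CPM, each next to the highest of its group. Acly and Acss2 did not follow either, with DDR2-plus 3 the highest of its group for both. In PSC, library 1 was the highest for 12 of 18 sterol enzymes, against 22.6% of all tested genes. It was the lowest for Mvd and Lss, at 7.8 and 14.8 CPM. The median coefficient of variation of the sterol enzymes was 17.3% in DDR2-plus and 16.2% in PSC, that of the fatty acid enzymes 11.2% and 13.7%, and that of all tested genes 17% and 21.7%.

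**Figure D4:**
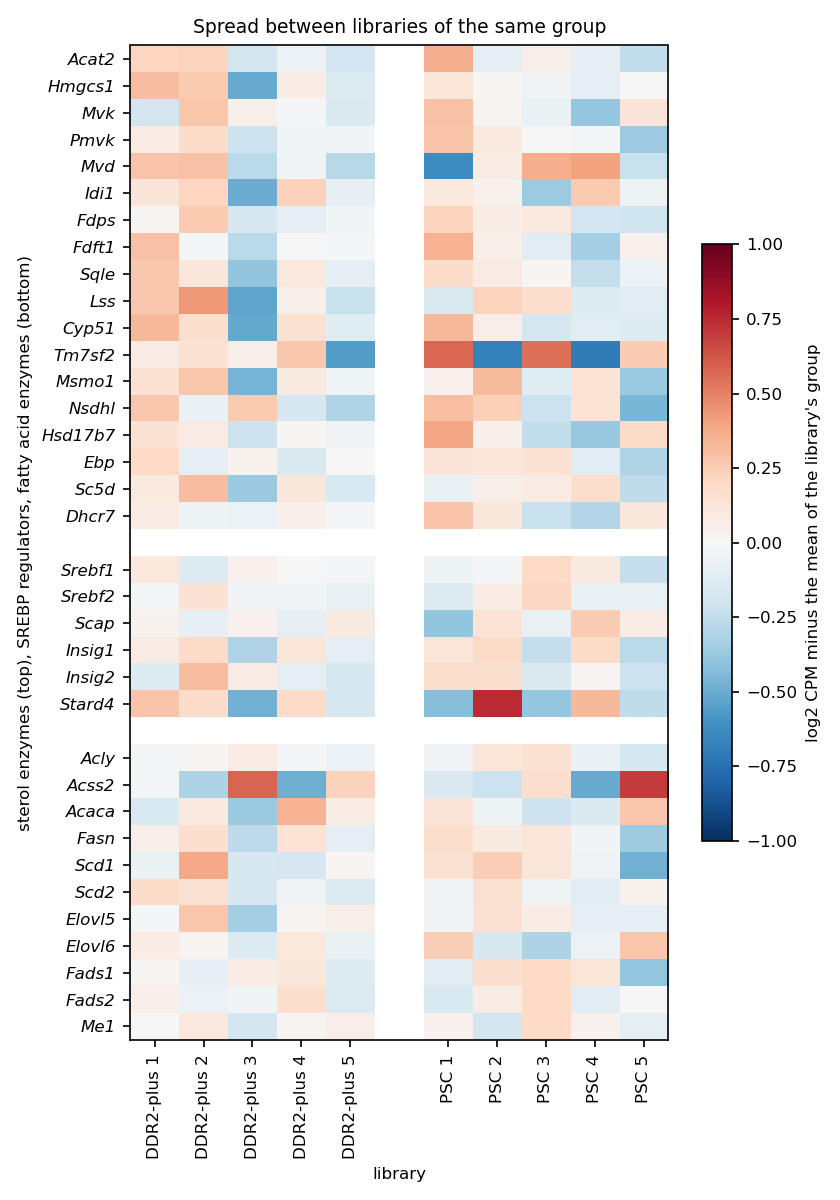
Log2 CPM of each gene in each library minus the mean of that library's own group, from blue (lower) to red (higher), with sterol enzymes at the top, regulators in the middle and fatty acid enzymes at the bottom. The column of DDR2-plus 3 is blue for most sterol enzymes, where its median is -0.24, and the column of PSC 1 is mostly red there, with a median of 0.25.

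Markers of cell types that the sort could hold were set beside these values. DDR2-plus 3 had the lowest chondrocyte marker sum of its group, 86969.7 CPM against 103421 to 120114 CPM in the others, and the highest osteoblast marker sum, 51428 CPM. DDR2-plus 1 had the next lowest chondrocyte sum, 103421 CPM, and a sterol mean of 5.81 against 5.41 in DDR2-plus 3. PSC 1, with the highest sterol mean of its group, had the highest osteoblast sum, 178914 CPM. Its chondrocyte sum of 22172 CPM was next to the highest of its group. PSC 4, with the highest chondrocyte sum, 27118 CPM, had a sterol mean of 4.36 against 4.64 in PSC 1. Between the groups, all 8 chondrocyte markers were called higher in DDR2-plus, 6 of 7 osteoblast markers and 5 of 5 tendon markers lower. Over all tested genes the shares were 20.1% higher and 19.0% lower. Myelin and Schwann cell markers summed to 527 to 992 CPM in DDR2-plus and 378 to 416 CPM in PSC (7 of 8 called higher), neuron markers to 38.8 to 135 CPM in DDR2-plus and 6.78 to 13.8 CPM in PSC (6 of 7), and astrocyte markers to 57.4 to 301 CPM in DDR2-plus and 21 to 29.7 CPM in PSC (5 of 5). The 6 cell cycle markers, all called higher, summed to 163 to 282 CPM in DDR2-plus and 92.5 to 130.0 CPM in PSC. Adipocyte markers summed to 46.4 to 78.8 CPM in DDR2-plus and 81.6 to 198 CPM in PSC, with Lep at 0 in every library and 1 of 4 tested markers called in each direction. Most of that sum was Lpl, called lower, with a mean of 48.5 CPM across DDR2-plus against 135 CPM across PSC. Fabp4 was called higher, at 9.23 CPM across DDR2-plus against 1.10 CPM across PSC. Macrophage markers summed to 11.9 to 24.6 CPM in DDR2-plus and 6.83 to 17.5 CPM in PSC (1 of 3 tested called higher). Endothelial markers summed to 21.6 to 37.8 CPM in DDR2-plus and 17.9 to 40.4 CPM in PSC, with 2 of 5 called higher and 2 lower. Epithelial markers summed to 12 to 55.3 CPM in DDR2-plus and 3.64 to 10.1 CPM in PSC (3 of 3 tested called higher). Muscle markers summed to 8.93 to 35.4 CPM in DDR2-plus and 6.24 to 19.5 CPM in PSC (1 of 4 tested called higher). Red cell markers summed to 6.87 to 27.8 CPM in DDR2-plus and 0.199 to 9.5 CPM in PSC (1 of 3 called higher). The part of any of these in the sterol and fatty acid values was not tested. A fit with numbers 1, 2 and 4 alone, chosen after the values were seen, left out DDR2-plus 3, DDR2-plus 5, PSC 3 and PSC 5. In that fit the same 27 of the 35 were called. The median log2 fold change was 1.35 for the sterol and 0.69 for the fatty acid enzymes.

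The genes around the pathway did not all differ in the same direction as most members. Of 13 other genes of mevalonate use and sterol synthesis, 2 rose and 2 fell, with a median log2 fold change of -0.11. Those that fell were Tmem97, a sterol-binding membrane protein, at 50.3 ± 2.17 CPM across DDR2-plus against 60.4 ± 4.69 CPM across PSC (log2 fold change -0.26, edgeR adjusted p = 0.0127; 0.0056 with library size alone), and Dhdds, which makes dolichol from farnesyl pyrophosphate (-0.38, edgeR adjusted p = 0.00956; not called with library size alone). Acat1, the mitochondrial thiolase, was at 157 ± 9.08 CPM across DDR2-plus against 169.7 ± 18.5 CPM across PSC and did not pass (edgeR adjusted p = 0.29; log2 fold change -0.12, and 0.16 with library size alone). The shares called higher and lower, 2 of 13 each, were 15.4%, beside 20.1% and 19.0% of all tested genes.

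Of 18 genes of sterol uptake, transport and esterification, 7 rose (38.9%) and 5 fell (27.8%), beside 20.1% and 19.0% of all tested genes. Lrp8, a receptor of reelin, was at 24.1 ± 5.2 CPM across DDR2-plus against 4.18 ± 1.84 CPM across PSC (2.53 in log2 units; edgeR adjusted p = 2.93e-05), and Tmem41b, a lipid scramblase of the endoplasmic reticulum, rose by 0.67 (edgeR adjusted p = 5.98e-05). Cyb5r3, a cytochrome b5 reductase, fell by 0.66, Lipa, the lysosomal lipase that frees cholesterol from esters, fell by 1.13, and Lrp1, a large endocytic receptor, fell by 0.43 on the log2 scale (edgeR adjusted p = 5.06e-06, 0.00014 and 0.00266; Lrp1 was not called with library size alone). Gramd1a, a sterol carrier at membrane contacts, was at 68.3 ± 9.04 CPM across DDR2-plus against 57.2 ± 8.93 CPM across PSC and did not pass (edgeR adjusted p = 0.116). It was called higher without DDR2-plus 3 or PSC 4 and with library size alone, with log2 fold changes of 0.32, 0.34 and 0.53.

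LXR is the nuclear receptor of oxysterols that promotes efflux. Of 13 genes of LXR and efflux, 3 rose (23.1%) and 2 fell (15.4%), beside 20.1% and 19.0% of all tested genes. Abca1, the cholesterol exporter and an LXR target, was at 50.5 ± 8.82 CPM across DDR2-plus against 80.5 ± 8.04 CPM across PSC (-0.67 on the log2 scale, edgeR adjusted p = 0.000738), and Nr1h2, which encodes LXR beta, fell by 0.36 (edgeR adjusted p = 0.00362; not called with library size alone). Mylip, a ubiquitin ligase and also an LXR target, was higher at 56.9 ± 4.52 CPM across DDR2-plus against 39.95 ± 2.26 CPM across PSC (0.51 on the log2 scale, edgeR adjusted p = 0.000248). Ncoa5, a nuclear receptor coactivator, rose by 0.44 (edgeR adjusted p = 0.0276) but was not called without DDR2-plus 1, 3 or 4 or PSC 1 or 3, and its log2 fold change over all settings ran from 0.35 to 0.71. Lpcat3, a phospholipid remodelling enzyme, was at 43.1 ± 4.59 CPM across DDR2-plus against 46.1 ± 4.89 CPM across PSC and did not pass (edgeR adjusted p = 0.478; log2 fold change -0.096, and 0.17 with library size alone).

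Among 22 genes that process SREBP or act with it, 4 rose (18.2%) and 2 fell (9.09%), beside 20.1% and 19.0% of all tested genes. Mbtps1, the protease that makes the first cut in SREBP, was at 274 ± 24.5 CPM across DDR2-plus against 266 ± 34.2 CPM across PSC, and its log2 fold change was 0.042 (SE 0.097) (not called, edgeR adjusted p = 0.771). It was called higher with library size alone (0.31), and its sign turned without DDR2-plus 2 (-0.013) and without PSC 5 (-0.034). Trib1, a pseudokinase that directs other proteins to degradation, stood at 227, 228, 139, 236 and 170.3 CPM in DDR2-plus 1 to 5 and 42.7, 46.2, 19.9, 60.8 and 34.2 CPM in PSC 1 to 5. It was 4.9-fold higher with no overlap (edgeR adjusted p = 1.72e-05). Usf1 and Usf2, E-box factors of the fatty acid genes, were at 18.2 ± 1.58 CPM across DDR2-plus against 23.3 ± 3.31 CPM across PSC, and at 13.9 ± 1.76 CPM across DDR2-plus against 18.1 ± 2.27 CPM across PSC. Both fell (log2 fold changes -0.36 and -0.38; edgeR adjusted p = 0.0328 and 0.0368). Usf1 was not called without DDR2-plus 2, 4 or 5 or PSC 1, 4 or 5, and Usf2 not without DDR2-plus 1, 2 or 4 or PSC 1, 2, 3 or 5, nor was either called with library size alone. Over all settings their log2 fold changes ran from -0.43 to -0.082 and from -0.45 to -0.12.

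Of 24 other genes of fatty acid synthesis, 7 rose (29.2%) and 4 fell (16.7%), beside 20.1% and 19.0% of all tested genes. Acsl1, an acyl-CoA synthetase, was at 30.5 ± 4.53 CPM across DDR2-plus against 13.5 ± 2.63 CPM across PSC (1.18 on the log2 scale, edgeR adjusted p = 6.88e-05), Hacd3, an elongation dehydratase, rose by 0.45 and Cyb5b, an outer mitochondrial cytochrome b5, by 0.42 (edgeR adjusted p = 0.00189 and 0.00114). Acsl5, another synthetase, fell by 0.86, Elovl1, the elongase of very long saturated chains, by 0.54, and Tecr, the last enzyme of each elongation cycle, by 0.39 (edgeR adjusted p = 0.000232, 0.00048 and 0.000563; Tecr was not called with library size alone). Idh1, the cytosolic NADPH-producing dehydrogenase, was at 149.9 ± 13.2 CPM across DDR2-plus against 129.6 ± 15.6 CPM across PSC and did not pass (edgeR adjusted p = 0.0954), though it did with library size alone (0.48) and with numbers 1, 2 and 4 alone (0.25).

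Storage and breakdown of lipid were also examined. Of 21 genes of triglycerides and lipid droplets, 5 rose (23.8%) and 5 fell (23.8%), beside 20.1% and 19.0% of all tested genes. Lpin1, the phosphatidate phosphatase lipin-1, was at 41.1 ± 5.26 CPM across DDR2-plus against 16.4 ± 6.05 CPM across PSC (1.33 on the log2 scale, edgeR adjusted p = 0.000377). Gpam, the acyltransferase of the first step, rose by 0.61, and Plin2, a droplet coat protein, by 0.34 (edgeR adjusted p = 0.00611 and 0.016). Gpam was not called with numbers 1, 2 and 4 alone (0.55), and Plin2 not without DDR2-plus 2 (0.29), without DDR2-plus 5 (0.30) or with those numbers alone (0.38). Plin3, another coat protein, was at 51 ± 6.49 CPM across DDR2-plus against 103 ± 10.8 CPM across PSC, Bscl2, seipin, fell by 0.68 and Abhd5, a lipase coactivator, by 0.54 (edgeR adjusted p = 7.63e-06, 0.000291 and 0.00365). Bscl2 and Abhd5 share 10.8% and 15.9% of their exonic bases with other genes, and Abhd5 was not called with library size alone. Slc27a1, a fatty acid transporter, was at 45.3 ± 4.56 CPM across DDR2-plus against 51.2 ± 7.8 CPM across PSC and did not pass (edgeR adjusted p = 0.243; log2 fold change -0.18, and 0.097 with library size alone).

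Of 21 genes of fatty acid oxidation, 8 fell (38.1%, beside 19.0% of all tested genes) and 2 rose, with a median log2 fold change of -0.22. Cpt1a, the gate of mitochondrial import of fatty acids, stood at 34.9, 47.3, 51.9, 40.2 and 46 CPM in DDR2-plus 1 to 5 and 98.4, 86.3, 97.1, 64.2 and 81.4 CPM in PSC 1 to 5. It fell by 0.96 on the log2 scale (edgeR adjusted p = 0.0001). Etfb, an electron carrier subunit, fell by 0.57 and Acads, the short-chain dehydrogenase, by 0.54 (edgeR adjusted p = 9.47e-05 and 0.0016). Etfb shares 58.2% of its exonic bases with Gm45233 and Mir7051, and Acads was not called with library size alone. Etfa, the partner subunit of Etfb, rose by 0.61 (edgeR adjusted p = 0.000274). Hadh, a mitochondrial dehydrogenase, was at 61 ± 4.95 CPM across DDR2-plus against 69.3 ± 8.73 CPM across PSC and did not pass (edgeR adjusted p = 0.153; log2 fold change -0.18, and 0.084 with library size alone).

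**Figure D5:**
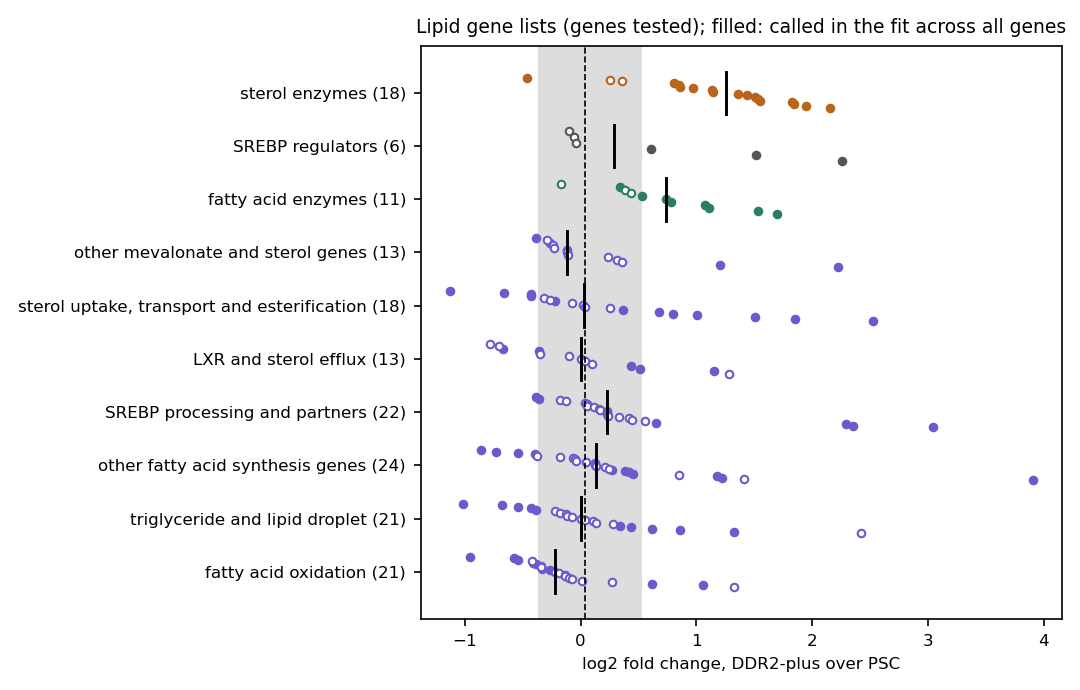
Log2 fold changes, DDR2-plus over PSC, of the tested genes of each lipid list, filled where called, with a bar at each list's median and the quartiles of all tested genes in grey around their median (dashed). The medians are 1.25 for sterol enzymes and 0.74 for fatty acid enzymes, both chosen with this contrast known, and between -0.22 and 0.23 for the other lists except the regulators at 0.29.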

How the data were processed

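RNA of 5 DDR2-plus and 5 PSC libraries was measured by RNA-seq. Per the labels' protocols, cDNA was amplified from sorted cells with SMART-Seq v4, made into Nextera XT libraries, which do not mark strand, and sequenced paired-end on a NovaSeq6000. Per the submitters' processing notes, the genome build was mm10 and DESeq was used. For the aligner, counting tool and annotation, nothing is stated in these sources. What the authors deposited is a table of raw read counts with a row per gene symbol, and every column was used. Amplified reads are not independent molecules.

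DDR2-plus was set against PSC in edgeR 4.0.16 (R 4.3.3), using glmQLFit and glmQLFTest after TMM scaling. The filterByExpr function kept 15416 genes, over which p-values were adjusted after Benjamini and Hochberg, with a threshold of 0.05. Standard errors come from the fold change and F statistic. The mean log2 CPM of an arm used a prior count of 2. DESeq2 1.42.0, limma-voom (limma 3.58.1), other scalings and filters, and fits without single libraries were alternatives. No libraries of a group were duplicates within sampling noise (lowest chi-square per degree of freedom 40.9). Lengths are those of the principal transcripts of GENCODE M21 (GRCm38). The members and gene lists were chosen with earlier results of these data known. All 35 members are named, and of 7 other lists the 3 genes per direction with the smallest p among those reaching 10 CPM in either group, plus the most abundant gene without a call. Some genes that this rule picks are not reported here. Of 136 other lipid genes with a row, 132 were tested. Values of every library are given for members at least 1.5-fold apart and for Srebf1, Srebf2, Insig1, Insig2, Fasn, Scd1 and Scd2. Beyond that rule they are given for Ebp, Trib1 and Cpt1a, chosen after their values were seen.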

Additional observations from a re-analysis of the deposited data

Results flagged for a closer look

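In 12 of 184 sets of 5 values examined (6.52%), 1 library stood far from the other 4 of its group by Dixon's ratio; chance flags about 1 in 20. In DDR2-plus 2, Srebf2 was at 129 against 111 to 116 CPM in the other libraries of the group, and the ratio of Srebf2 to Srebf1 per kilobase at 1.58 against 1.21 to 1.29. The same library had Acat1 at 141 against 158 to 165 CPM and Lpcat3 at 51.2 against 39.9 to 42.3 CPM. In PSC 5, the ratio per kilobase of Scd2 to Scd1 was 7.71 against 4.72 to 5.1 and that of Hmgcs1 to Fasn 2.17 against 1.51 to 1.63. In DDR2-plus 5, Tmem97 was at 54.1 against 49 to 49.5 CPM and Etfa at 76.4 against 84.6 to 87.3 CPM. Usf2 was at 10.9 against 14.1 to 15.2 CPM in DDR2-plus 4, Tecr at 138 against 116 to 120.5 CPM in DDR2-plus 3, Hadh at 52.4 against 61.4 to 64.3 CPM in DDR2-plus 1, and Elovl1 at 65.9 against 76.5 to 77.4 CPM in PSC 2.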

How the results depend on the processing

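Of the 35 members, 27 kept direction and call in all 18 alternative settings, and 32 in all but library size alone. With library size alone, 5421 genes were called higher and 1538 lower, 35.2% and 9.98% of all tested genes. Of the 132 other lipid genes tested, 55 were then called higher and 10 lower, against 30 and 28 with TMM. With library size alone, 0 sterol enzymes were called lower. The median log2 fold change was then 1.52 for the sterol and 1.005 for the fatty acid enzymes, and the arm levels differed by 1.45 and 1.04, and with TMM by 1.41 and 0.89 as log2 ratios of summed CPM. Signs turned with library size alone for Srebf1 (0.24), Scap (0.21), Insig2 (0.17), Elovl5 (0.098), Acat1 (0.16), Hadh (0.084), Lpcat3 (0.17), Slc27a1 (0.097) and Tmem97 (0.0056); this scaling moves the median of all tested genes from 0.038 to 0.31. Leaving out 1 library turned Srebf1 (0.016), Scap (0.0072) and Mbtps1 (-0.013 and -0.034), none of them called, and over these fits their values lay within -0.089 to 0.016, -0.15 to 0.0072 and -0.034 to 0.091; numbers 1, 2 and 4 alone gave Mbtps1 -0.029 and a sterol minus fatty acid median of 0.66. Without single libraries the median was 1.15 to 1.32 for sterol enzymes, 0.62 to 0.80 for fatty acid enzymes and 0.48 to 0.57 for their difference, with 15 sterol enzymes and 8 to 9 fatty acid enzymes called higher. The shorter sterol element raised the members with a match from 1 to 3. Beyond what each alternative changes by its construction, the cause was not tested.

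The groups share library numbers 1 to 5. Correlations of same-numbered libraries' departures from their group means were low, 0.0289 to 0.0532, but all 10 libraries correlated best with their own number. The numbers may thus pair the samples, and the main fit did not use them as pairs. With the number as a replicate block, 3054 genes were called higher and 2688 lower, the same 27 members were called, and the median log2 fold change was 1.24 for sterol and 0.74 for fatty acid enzymes. Depth limits Tm7sf2 most, with as few as 89 counts.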

Other observations

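A few genes of the lists fell outside the naming rule for their low level and are given, with no test, because their values stood out once seen. Thrsp, a lipogenic regulator, was at 1.73 ± 0.812 CPM across DDR2-plus against 0.111 ± 0.118 CPM across PSC, Mlxipl, the carbohydrate-responsive lipogenic factor ChREBP, at 1.64 ± 0.751 CPM across DDR2-plus against 0.198 ± 0.238 CPM across PSC, and Prkaa2, a catalytic subunit of AMP kinase, at 6.63 ± 1.22 CPM across DDR2-plus against 1.3 ± 1.21 CPM across PSC (SD, n = 5 each). The values of the 3 did not overlap between the groups, which is what they were picked for.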
